A study of Drosophila melanogaster with 4 samples.

Results

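The cadherins and adherens junction genes of the Drosophila ovary were examined as a set of 10 genes, chosen by name, out of 17490 genes listed in the data. They were the cadherins shg, CadN, Cad74A and Cad99C, the catenins arm, alpha-Cat and p120ctn, and the junction-associated genes ed, cno and sdk. Earlier results of these data were known when the set was chosen. All 10 were found, and all 10 passed the filter on low values, a mean of at least 0.1 FPKM. FPKM are fragments counted on a gene, scaled to its exon length and by a constant per library.

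The measurement was translating ribosome affinity purification (TRAP), in which a GFP-tagged ribosomal protein, RPL10a-GFP, is made in chosen cells. It is pulled down with anti-GFP, so that the mRNA bound to its ribosomes is sequenced. In the soma group, RPL10a-GFP was placed under UAS control and driven by tj:Gal4, a driver active in the somatic follicle lineage. In the germline group the same transgene was driven by Nos:Gal4Vp16, which is active in germ cells. Each group had 2 libraries made from whole ovaries, so all stages of oogenesis were pooled, no untagged control was analysed here, and somatic cells in which tj:Gal4 is silent were not sampled by design. The labels give no age and do not say whether replicates came from separate crosses, so the p-values measure only the spread between these libraries.

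Adherens junctions hold epithelial cells together. The extracellular domains of cadherins on neighbouring cells bind each other in the presence of calcium, and the cytoplasmic tail of a classical cadherin binds beta-catenin and p120-catenin, with alpha-catenin linking beta-catenin to actin. In the Drosophila egg chamber, E-cadherin is known for its place in the follicular epithelium, in the adhesion of the oocyte to posterior follicle cells and in the migration of border cells over the nurse cells, which carry E-cadherin too.

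The libraries differed in depth and content. Reads recovered from the FPKM values, ribosomal RNA left out, came to 17013813 and 629199 in the soma libraries and to 1194623 and 1313996 in the germline libraries. Ribosomal RNA made up 6.22% of reads in soma replicate 1, against 55.6% to 74.3% in the other 3 libraries. Of the follicle cell markers, 7 of 9 tested were higher in soma, with a summed level of 2493 and 3196 FPKM in soma against 215 and 161 FPKM in germline. Germline means of these markers were 3.07% to 13.2% of soma means (median 7.25%). Of the germ cell markers, 4 of 9 tested were higher in germline and none in soma, with sums of 175 and 145 FPKM in soma against 368 and 427 FPKM in germline. Conversely, germ cell markers had soma means at 28.8% to 83.7% of their germline means (median 41.0%).

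Among the 10 genes, 3 cadherins passed the test as higher in soma, none passed as higher in germline, and all 3 catenins were measured at overlapping levels in both lineages. The 3 were shg, Cad74A and Cad99C, with soma-to-germline ratios of mean FPKM of 6.87, 28.5 and 16.1. The test was limma on log2(FPKM + 0.1), with Benjamini-Hochberg adjustment over 8823 genes and a threshold of 0.05. It called 8.64% of all genes tested as higher in soma and 3.59% as higher in germline. By the unadjusted limma p alone, 6 of the 10 were under 0.05 as higher in soma (16.8% of all genes tested) and 0 as higher in germline (11.0% of all genes tested). The median log2 fold change of the 10 genes was 1.03 (range -0.04 to 4.72), beside 0.04 over all genes tested. In 7 of the 10 both soma libraries lay above both germline libraries, which held for 29.6% of all genes tested, and in none did both germline libraries lie above both soma libraries, which held for 25.8%.

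**Figure D1:**
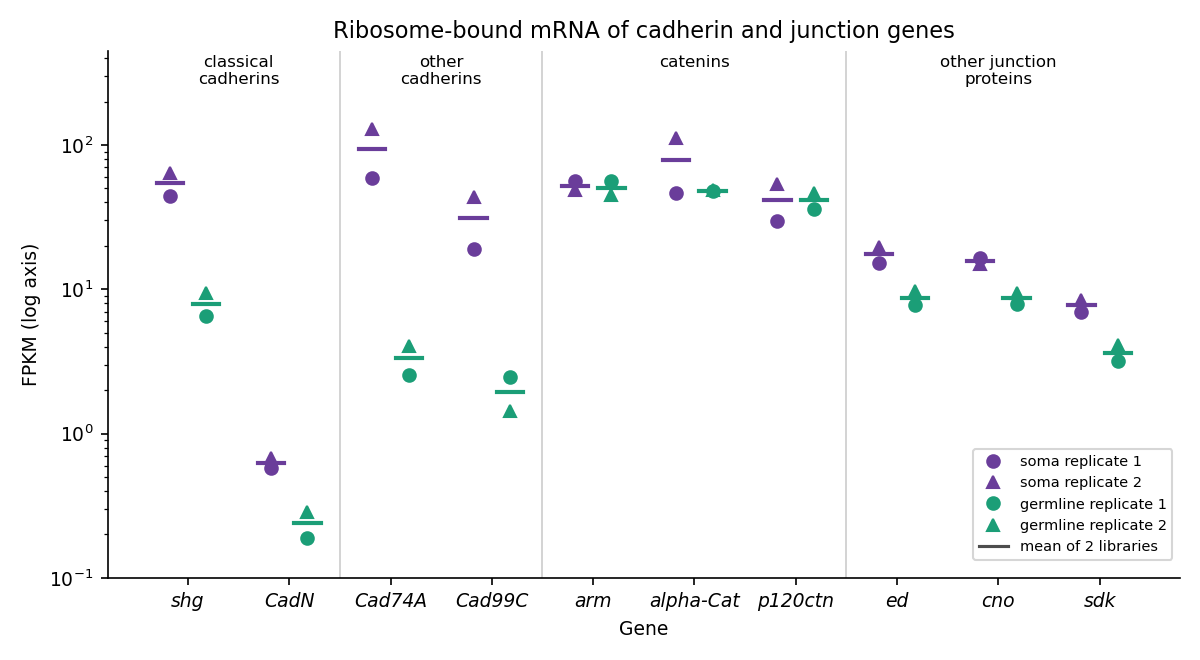
FPKM (log axis) of each of the 10 genes in the 2 soma libraries (purple) and the 2 germline libraries (green), grouped by role, with bars at the mean of each group. The soma points of shg, Cad74A and Cad99C lie well above their germline points, with means of 54.4, 94.4 and 31.2 FPKM in soma, while the points of arm, alpha-Cat and p120ctn overlap.

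The first of the classical cadherins is shg (FBgn0003391, chr2R:21049654-21057197, minus strand in the dm6 assembly), which encodes Drosophila E-cadherin. Its level was 44.6 and 64.1 FPKM in soma, against 6.49 and 9.35 FPKM in germline. Both soma libraries stood above both germline libraries, and the means were 54.4 ± 13.8 FPKM in soma and 7.92 ± 2.03 FPKM in germline (SD, n = 2 each). The log2 fold change was 2.76 (SE 0.33, 95% interval 1.97 to 3.56, limma adjusted p = 0.0047). Its soma mean was at percentile 92.0 of the genes tested and its germline mean at percentile 54.1. E-cadherin mRNA was thus lower in the germline libraries than in the soma libraries but not near the detection limit, with 122 and 217 germline reads. The part of follicle cell mRNA in those reads was not tested. In pulled-down material from whole ovaries, fewer cells of a type and less RNA per cell cannot be told apart.

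CadN (chr2L:17647053-17778340, minus strand), which encodes N-cadherin, a classical cadherin best known from neurons and mesoderm, was the lowest of the 10 genes in each lineage. It was measured at 0.575 and 0.676 FPKM in soma, against 0.189 and 0.287 FPKM in germline. Both soma libraries were higher, yet the values rest on 355 and 12 reads in soma and on 8 and 15 reads in germline. The counting intervals (exact Poisson, 95%) were 0.516 to 0.638 and 0.349 to 1.18 FPKM in soma, against 0.0816 to 0.373 and 0.161 to 0.474 FPKM in germline. That of soma replicate 1 lay above both germline intervals, and that of soma replicate 2 overlapped them. The log2 fold change of 1.11 (SE 1.02, 95% interval -1.31 to 3.53, limma adjusted p = 0.52) did not pass the threshold. Neuron markers summed to 1.14 and 1.46 FPKM in soma against 0.148 and 0.135 FPKM in germline. Only elav and fne passed the filter, and neither was called. elav was at 0.992 and 0.606 FPKM in soma, against 0.127 and 0.0257 FPKM in germline. fne was at 0.00735 and 0.597 FPKM in soma and at 0 in germline. para alone was lower in soma on average (0.0114 against 0.0358 FPKM), and nSyb was at 0 in all libraries. The part of neuron mRNA in the CadN values was not tested.

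The 2 cadherins outside the classical group, Cad74A and Cad99C, showed the widest gaps. Cad74A (chr3L:17367753-17379530, minus strand), a cadherin of the follicular epithelium, was at 58.9 and 129.9 FPKM in soma, against 2.56 and 4.07 FPKM in germline. It had the highest soma mean of the 10 genes and only the eighth germline mean. Its log2 fold change was 4.72 (SE 0.45, 95% interval 3.64 to 5.79, limma adjusted p = 0.0025). Cad99C (chr3R:29841657-29854699, plus strand) is a protocadherin known from the microvilli of follicle cells. It had 19.0 and 43.5 FPKM in soma, against 2.46 and 1.43 FPKM in germline. The groups did not overlap, with a log2 fold change of 3.87 (SE 0.53, 95% interval 2.61 to 5.12, limma adjusted p = 0.0069).

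Expressed as a share of the soma level, germline means came to 14.6% for shg, 6.23% for Cad99C and 3.51% for Cad74A. The values of Cad99C and Cad74A lie inside the range of the follicle cell markers, 3.07% to 13.2%, and that of shg lies just above it. The part of follicle cell mRNA in the germline values was not tested. All 3 genes were also more than 5-fold higher in soma with an unadjusted limma p under 0.05, as were 9.41% of genes tested. The 3 calls were made with all 4 libraries. With each library left out, log2 fold changes were 2.50 to 3.03 (shg), 4.15 to 5.29 (Cad74A) and 3.27 to 4.46 (Cad99C). Those fits leave a lone library in a group, so they cannot decide whether a call holds. With a variance prior that did not follow expression level, Cad74A alone was called, and limma adjusted p values were 0.051 for shg and 0.053 for Cad99C.

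**Figure D2:**
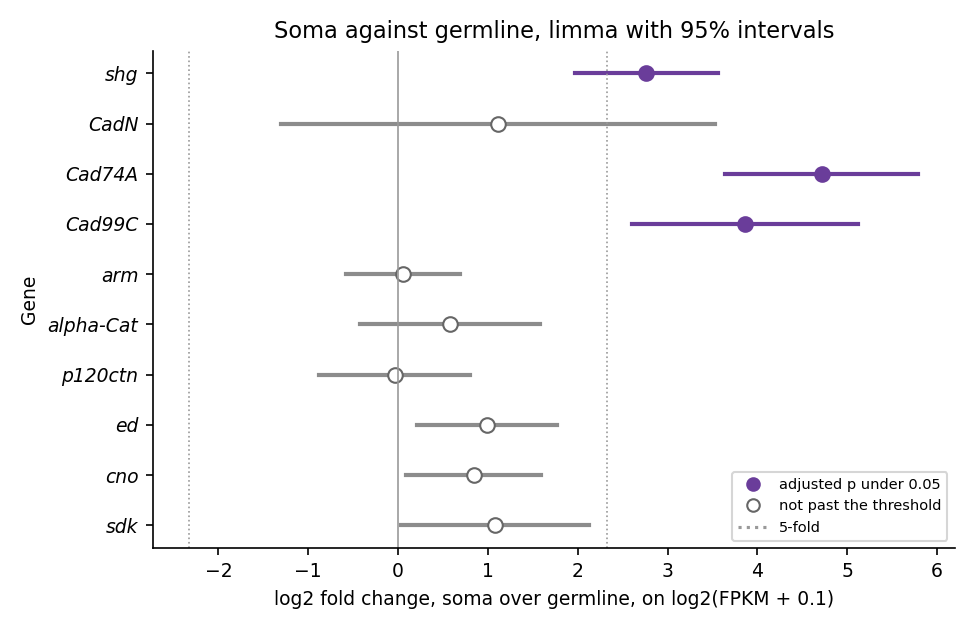
Log2 fold change of soma over germline with its 95% limma interval for the 10 genes. Filled points (shg 2.76, Cad74A 4.72, Cad99C 3.87) passed the adjusted threshold, the intervals of arm, alpha-Cat, p120ctn and CadN include 0, and those of ed, cno and sdk lie above 0 although their adjusted p values missed it.

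The catenins had high levels in each lineage. arm (chrX:1891401-1900646, minus strand) encodes beta-catenin, which binds the E-cadherin tail and also acts in Wingless signalling. Its level was 56.3 and 48.5 FPKM in soma, against 56.0 and 45.3 FPKM in germline. The groups overlapped almost entirely, and the log2 fold change was 0.05 (SE 0.27, 95% interval -0.58 to 0.69, limma adjusted p = 0.92). Its sign turned under quantile normalisation (-0.10) and without soma replicate 1 or germline replicate 2.

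alpha-Cat (chr3L:23318646-23338100, minus strand), the link from beta-catenin to actin, was at 46.8 and 111 FPKM in soma, against 48.1 and 48.6 FPKM in germline. Only soma replicate 2 stood apart, and the other 3 libraries lay between 46.8 and 48.6 FPKM. The log2 fold change was 0.58 (SE 0.42, 95% interval -0.42 to 1.58, limma adjusted p = 0.43), and it was -0.05 without soma replicate 2. p120ctn (chr2R:4595288-4609492, plus strand) binds the juxtamembrane part of classical cadherins. It had 29.7 and 54.1 FPKM in soma, against 36.2 and 46.8 FPKM in germline, with the germline pair lying between the soma values. Its log2 fold change was -0.04 (SE 0.35, 95% interval -0.88 to 0.80, limma adjusted p = 0.95), and its sign turned without soma replicate 1 (0.39) or germline replicate 2 (0.15).

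A missed threshold does not show equal levels, and the intervals set the size that these libraries allow. Germ cell markers had soma means at 28.8% to 83.7% of their germline means (median 41.0%). The part of germ cell mRNA in the soma catenin values, and in ratios made from them, was not tested. For arm the interval ends at 0.69 on the log2 scale, for p120ctn at 0.80 and for alpha-Cat at 1.58, while that of shg begins at 1.97. Summed over the 3 catenins, the level was 133 and 214 FPKM in soma, against 140 and 141 FPKM in germline. Summed over Cad74A and Cad99C it was 77.9 and 173 FPKM in soma, against 5.02 and 5.49 FPKM in germline.

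The proportion of cadherin to catenin mRNA can be read within each library, where scaling between libraries drops out. The ratio of shg to arm was 0.794 and 1.32 in soma, against 0.116 and 0.207 in germline. That of shg to p120ctn was 1.50 and 1.19 in soma, against 0.179 and 0.200 in germline. The ratio of shg to alpha-Cat was 0.953 and 0.577 in soma, against 0.135 and 0.193 in germline. E-cadherin mRNA was thus at 0.577 to 1.50 times the level of a catenin in soma libraries and at 0.116 to 0.207 times in germline libraries, with no overlap for any of the 3 catenins.

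The ratio of Cad74A to alpha-Cat was 1.26 and 1.17 in soma, against 0.0532 and 0.0838 in germline. For Cad99C to alpha-Cat it was 0.406 and 0.391 in soma, against 0.0512 and 0.0294 in germline. These pairs gave closely matching ratios in the 2 soma libraries although each gene alone differed more than 2-fold between them. Cad74A was also high relative to shg, at 1.32 and 2.03 in soma, against 0.395 and 0.435 in germline.

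Among the catenins, p120ctn to alpha-Cat ran the other way, at 0.635 and 0.486 in soma, against 0.753 and 0.965 in germline. The ratio of arm to alpha-Cat overlapped, at 1.20 and 0.436 in soma, against 1.16 and 0.932 in germline. The 12 ratios computed, many of which share a gene, are given as a description. The exact two-sided permutation test run on each ratio cannot give a p below 0.333 with 2 libraries against 2.

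**Figure D3:**
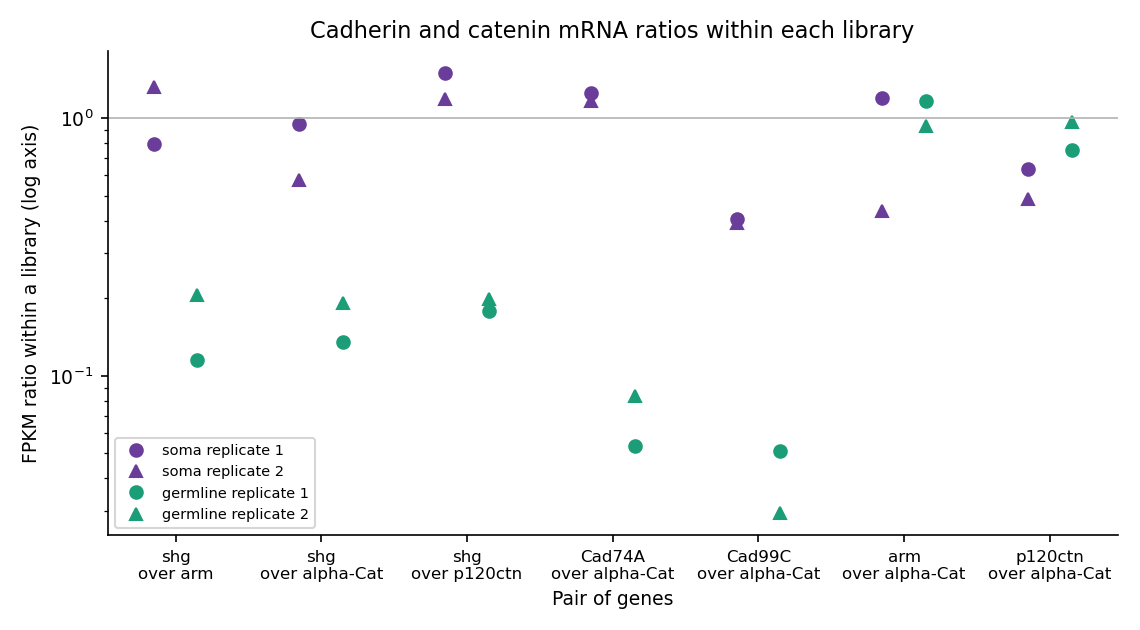
Ratio of FPKM values within each library (log axis) for 7 pairs of genes, soma in purple and germline in green, with the line marking a ratio of 1. The 3 ratios of shg to a catenin are 0.577 to 1.50 in soma and 0.116 to 0.207 in germline, while arm to alpha-Cat overlaps between the lineages.

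The 3 other junction genes were each somewhat higher in soma and none passed the adjusted threshold. ed (chr2L:4031377-4115749, plus strand) encodes Echinoid, an immunoglobulin-domain adhesion molecule found at adherens junctions. It had 15.3 and 19.7 FPKM in soma, against 7.79 and 9.70 FPKM in germline, and the groups did not overlap. The log2 fold change was 0.99 (SE 0.33, 95% interval 0.21 to 1.77, limma adjusted p = 0.10).

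cno (chr3R:5170004-5217456, minus strand) encodes Canoe, the fly afadin, which links junctions to actin. It was at 16.3 and 14.9 FPKM in soma, against 7.95 and 9.42 FPKM in germline. Again both soma libraries were higher, with a log2 fold change of 0.84 (SE 0.32, 95% interval 0.09 to 1.59, limma adjusted p = 0.14).

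sdk (chrX:686834-749496, plus strand) encodes Sidekick, an immunoglobulin-superfamily protein of tricellular contacts in fly epithelia. It had 6.99 and 8.48 FPKM in soma, against 3.17 and 4.09 FPKM in germline. The groups were apart by less than for the called cadherins, with a log2 fold change of 1.08 (SE 0.44, 95% interval 0.03 to 2.12, limma adjusted p = 0.17). Fitted on recovered reads with limma-voom, ed and sdk passed the threshold (adjusted p = 0.036 and 0.034), and cno could not be fitted because its values gave no whole reads.

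Ratios within this trio moved little between lineages. That of sdk to ed was 0.457 and 0.431 in soma, against 0.407 and 0.422 in germline, and that of cno to ed was 1.07 and 0.755 in soma, against 1.02 and 0.971 in germline. Summed over the trio the level was 38.6 and 43.0 FPKM in soma, against 18.9 and 23.2 FPKM in germline. Short stretches of exon are shared with genes on the opposite strand, 82 bases of arm (2.30% of its exon length) with mRpL16, 199 of ed (3.10%), 256 of sdk (2.68%), 118 of cno (0.893%) and 5 of Cad99C, and whether counting used strand is not given in the sources used here.

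The order of levels, which FPKM allows because it is scaled to length, differed between the lineages. In soma the means ran Cad74A, alpha-Cat, shg, arm, p120ctn, Cad99C, ed, cno, sdk and CadN. Each neighbouring pair from Cad74A down to cno overlapped, and only sdk and then CadN stood apart from the gene above. In germline the order was arm, alpha-Cat, p120ctn, ed, cno, shg, sdk, Cad74A, Cad99C and CadN. There the 3 catenins (means of 41.5 to 50.7 FPKM) were apart from the next gene, ed (8.74 FPKM), and ed, cno and shg overlapped.

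Several of the genes differed between the 2 soma libraries. The value of soma replicate 2 over soma replicate 1 was 2.37 for alpha-Cat, 2.29 for Cad99C, 2.21 for Cad74A, 1.82 for p120ctn and 1.44 for shg, against 0.862 for arm and 0.910 for cno. A ratio of at least 2 was found for 12.8% of the 8436 genes tested with a value above 0 in soma replicate 1 (median ratio 0.976), and for 5.68% of the 3360 genes with at least 1000 reads there (median ratio 1.01). Of the 6 other cadherins tested, 4 had such a ratio, with Cad87A at 2.57, Cad88C at 2.54, Cals at 2.50 and kug at 2.10, beside 1.95 for Cad86C and 1.08 for ds. Cad86C and ds had only 769 and 97 reads in soma replicate 1, and the value of ds in soma replicate 2 rests on 3 reads. This pattern was picked out after the values were seen and was not tested. Muscle markers summed to 4.0 FPKM in soma replicate 1 and 18.7 FPKM in soma replicate 2, and the 2 libraries differed 27.0-fold in reads other than ribosomal RNA. The part of these in the replicate ratios was not tested.

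**Figure D4:**
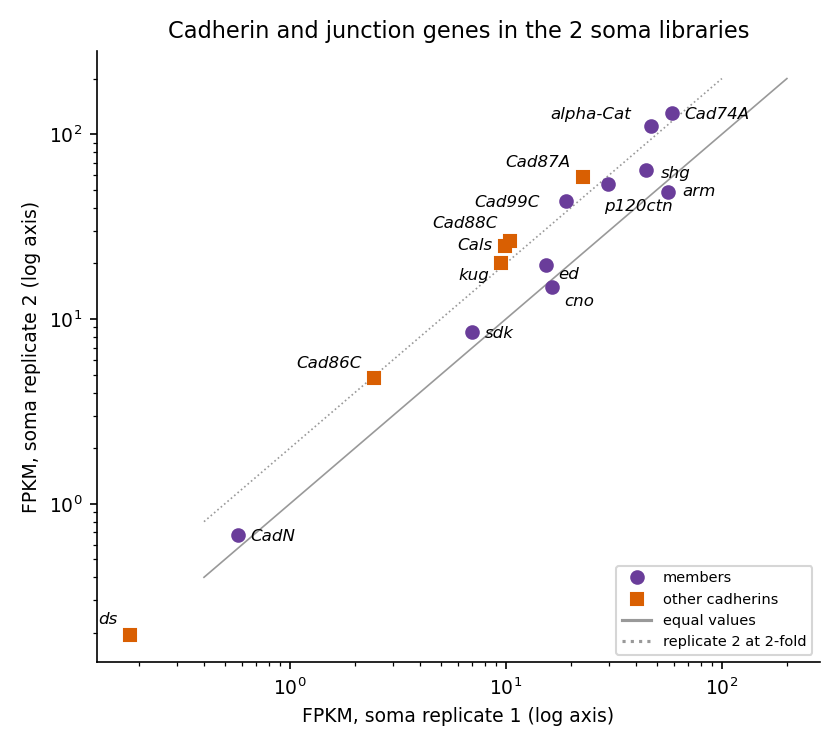
FPKM in soma replicate 2 against soma replicate 1 (log axes) for the 10 genes (circles) and 6 other cadherins (squares), with lines at equal values and at a ratio of 2. Cad74A, Cad99C, alpha-Cat, Cad87A, Cad88C, Cals and kug lie on or above the dotted line, and arm and cno lie below the line of equal values.

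The remaining cadherin superfamily was mostly low or higher in soma. Of 12 other cadherin genes, 6 passed the filter. Of these, 4 were called higher in soma and none in germline, with a median log2 fold change of 2.47. For this list and those that follow, the shares over all genes tested were 8.64% higher in soma and 3.59% in germline. The median log2 fold change over all genes tested was 0.04. Cad88C had the largest difference, with 10.4 and 26.6 FPKM in soma, against 0.202 and 1.10 FPKM in germline (log2 fold change 4.80, SE 0.84, limma adjusted p = 0.016). Cad86C followed at 2.45 and 4.76 FPKM in soma, against 0.139 and 0.301 FPKM in germline (3.51, limma adjusted p = 0.046). The germline values rest on only 4 and 27 reads for Cad88C and on 3 and 8 reads for Cad86C.

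Cad87A had the highest mean of the list, with 22.8 and 58.7 FPKM in soma, against 4.22 and 7.11 FPKM in germline (log2 fold change 2.72, limma adjusted p = 0.020). Cals encodes a calsyntenin, and was at 9.90 and 24.8 FPKM in soma, against 2.79 and 3.90 FPKM in germline (2.21, limma adjusted p = 0.041). kug, the Fat-like cadherin known for its role in egg chamber rotation, was not called, with 9.52 and 20.0 FPKM in soma, against 7.30 and 7.49 FPKM in germline (0.89, limma adjusted p = 0.24). The genes that did not reach the filter were CadN2, Cad89D, Cad96Ca, Cad96Cb, ft and stan, of which Cad89D was listed at 0 in all 4 libraries.

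Immunoglobulin-type adhesion molecules gave 3 calls higher in soma among 7 tested of 10 listed. Fas3, which is also one of the follicle cell markers, had 15.3 and 15.3 FPKM in soma, against 0.463 and 0.709 FPKM in germline (log2 fold change 4.51, limma adjusted p = 0.0049). Fas2 had 6.58 and 10.1 FPKM in soma, against 0.279 and 0.491 FPKM in germline (4.12, limma adjusted p = 0.013). Nrg, which encodes neuroglian, a septate junction protein and the highest of this list, had 17.7 and 22.0 FPKM in soma, against 1.23 and 1.66 FPKM in germline (3.70, limma adjusted p = 0.0046). All 3 have soma libraries far above the germline libraries. The germline values rest on 9 and 17 reads for Fas3 and on 6 and 13 reads for Fas2. The list median was 2.85, the value of bdl, which was not called and had 1 read in soma replicate 2.

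Of the 3 tricellular junction genes tested, 2 were called higher in soma. bark, which encodes Anakonda, had 12.5 and 28.3 FPKM in soma, against 0.599 and 0.351 FPKM in germline (log2 fold change 5.08, SE 0.64, limma adjusted p = 0.0053). Gli, which encodes Gliotactin, had 11.1 and 12.0 FPKM in soma, against 1.83 and 1.11 FPKM in germline (2.93, limma adjusted p = 0.015). Neither overlapped between lineages, and the germline values rest on 18 and 13 reads for bark and on 24 and 18 reads for Gli. M6 did not pass (2.73, limma adjusted p = 0.081).

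The regulators of junctional actin and myosin were closer between lineages, with 4 of 17 tested called higher in soma, none in germline and a median log2 fold change of 0.89. The regulatory light chain of non-muscle myosin II, sqh, had 131 and 133 FPKM in soma, against 21.3 and 18.2 FPKM in germline (log2 fold change 2.74, SE 0.25, limma adjusted p = 0.0022). Its heavy chain partner, zip, had 116 and 190 FPKM in soma, against 48.4 and 40.1 FPKM in germline (1.75, limma adjusted p = 0.020). These are the subunits of 1 motor, and they were at 132 and 153 FPKM on average in soma, against 19.8 and 44.2 FPKM in germline.

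Shroom, an actin-binding protein of apical junctions, had 7.55 and 8.36 FPKM in soma, against 0.713 and 0.533 FPKM in germline (log2 fold change 3.49, limma adjusted p = 0.015). Its germline values rest on 13 and 12 reads. Vinc, the fly vinculin, which binds alpha-catenin under tension, had 28.9 and 31.1 FPKM in soma, against 10.04 and 12.8 FPKM in germline (1.40, limma adjusted p = 0.026). The profilin gene chic, the highest of this list, did not pass, with 151 and 239 FPKM in soma, against 116 and 105 FPKM in germline (0.78, limma adjusted p = 0.19).

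Genes for cadherin delivery and turnover gave 3 calls among 8 tested, with a median log2 fold change of 0.46. The tyrosine kinases FER and Src42A had log2 fold changes of 3.43 (limma adjusted p = 0.032) and 2.09 (limma adjusted p = 0.015). FER was at 3.61 and 4.90 FPKM in soma, against 0.332 and 0.269 FPKM in germline. Src42A was at 24.7 and 26.7 FPKM in soma, against 4.62 and 7.61 FPKM in germline.

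The endosomal GTPase gene Rab5 had 55.8 and 55.9 FPKM in soma, against 26.7 and 28.2 FPKM in germline (log2 fold change 1.02, limma adjusted p = 0.043). Rab11, the recycling endosome GTPase and the highest of this list, did not pass, with 144 and 201 FPKM in soma, against 96.2 and 94.4 FPKM in germline (0.83, limma adjusted p = 0.13). The exocyst genes Sec5, Sec6 and Sec15 had log2 fold changes of -0.21, 0.09 and -0.43, none past the threshold.

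Over the 5 lists, 16 of 41 genes tested were higher in soma and none in germline, beside 8.64% and 3.59% of all genes tested. The lists were chosen with earlier results of these data known, so these shares are a description. By the unadjusted limma p, 25 of the 41 were under 0.05 as higher in soma and 0 as higher in germline, beside 16.8% and 11.0% of all genes tested, and limma-voom also called 0 higher in germline. Fits with a library left out leave a lone library in a group, so they cannot decide whether these 16 calls hold. Of the genes not called, bdl, kirre and rst were listed at 0 in both germline libraries. In soma replicate 2 they rest on 1, 3 and 0 reads. Under quantile normalisation the median of all genes moved to -0.17 on the log2 scale, and 12 of the 41 genes and 3 of the 10 were called higher in soma. Of all 8823 genes tested, that setting called 629 higher in soma and 393 higher in germline.

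**Figure D5:**
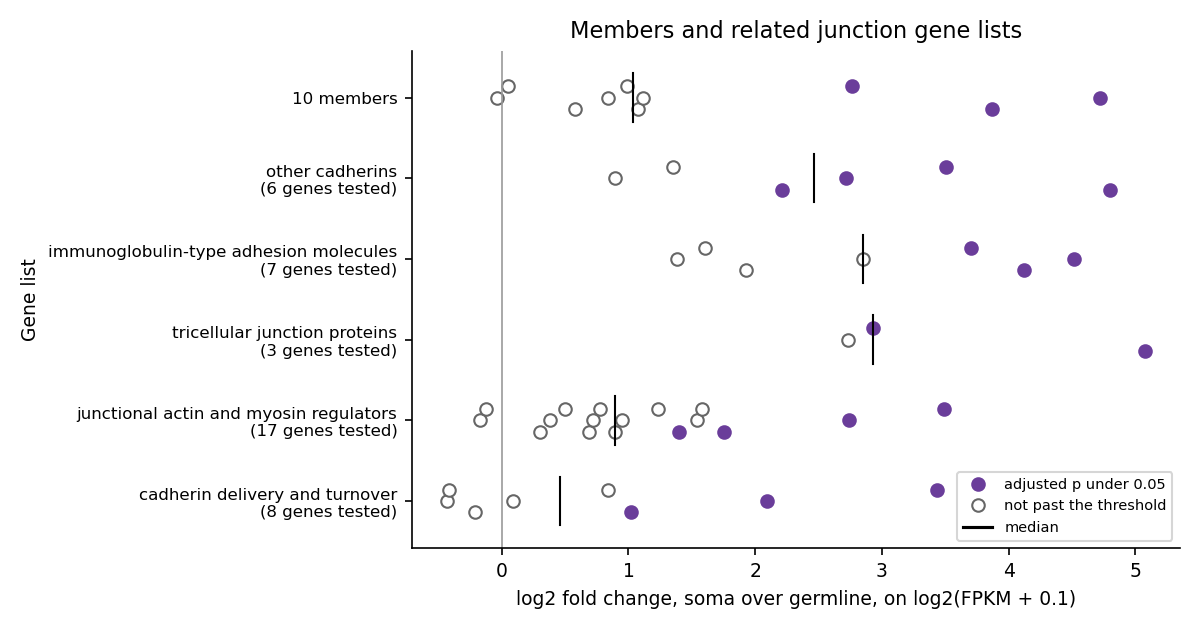
Log2 fold change of soma over germline for the 10 genes and for the tested genes of 5 related lists, with filled points past the adjusted threshold and a black bar at each median. Medians are 1.03 for the 10 genes, 2.47 for other cadherins, 2.85 for immunoglobulin-type molecules, 2.93 for tricellular junction proteins, 0.89 for actin and myosin regulators and 0.46 for delivery and turnover.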

How the data were processed

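FPKM values per gene for 4 libraries were used as deposited by the authors, written with decimal commas. The submitters' processing notes name cutadapt, FastQC, HISAT2, DESeq2 and the dm6 build, with no versions and no other detail. The table's values are not stored as counts; multiplied by exon length (Ensembl release 115, BDGP 6.54) and divided by a constant per library, 96.6% of the 10518 genes above 0 gave whole reads in each library (tolerance 0.03). Those reads give the depths and counting intervals printed, which cover counting error only.

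Log2(FPKM + 0.1) was tested with limma 3.58.1 in R 4.3.3 (lmFit, eBayes with a trend, two-sided) on 8823 genes (minimum mean 0.1 FPKM) with no replicate term, and p-values were Benjamini-Hochberg adjusted over these genes. Fold changes on this scale are understated for low genes. The procedure was also run on simulated reads with known changes. Their spread was set in advance, so that run does not show how the procedure performs on these libraries.

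All 10 members are described. From each related list, the called genes, at most 5 per direction, and the gene of highest mean are named, while kug, M6, bdl, kirre, rst, the exocyst genes and the genes under the filter were added after their values were seen. Members and lists were chosen with earlier results of these data known. Listed genes without a match, among them 4 markers and Girdin, were not analysed here. smash is listed in the data as CG43427 and dzy as PDZ-GEF. Of the blood cell markers, 3 of 6 were at 0 in all libraries and only crq was tested (29.3 and 36.5 FPKM in soma, 14.5 and 22.9 FPKM in germline, not called). Of the fat body markers, Lsp2 and fit were at 0, apolpp averaged 1.16 FPKM in soma and 0.554 FPKM in germline, and Yp3, a yolk protein gene that follicle cells also express, was called higher in soma (1330 and 1175 FPKM in soma, 150.1 and 92.6 FPKM in germline, limma adjusted p = 0.0053). Alternatives were other pseudocounts, filters and scalings, no variance trend, a replicate block, each library left out and limma-voom on recovered reads.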

Additional observations from a re-analysis of the deposited data

How the results depend on the processing

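Members called higher in soma numbered 3, and 1 without a variance trend and 5 with limma-voom. No member was called higher in germline under any alternative. With a library left out, a lone sample is taken to vary like the other group, so those fits are read for effect sizes only. Genes in the 5 related lists called higher in soma numbered 16, and 8 without the trend. Over all genes, 762 were higher in soma (451 without the trend, 0 to 564 with a library left out) and 317 in germline (37 without the trend, 656 with limma-voom, 0 to 11 with a library left out).

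Sign changes were found only among members that were never called: arm with quantile normalisation (-0.10), without soma replicate 1 (-0.06) and without germline replicate 2 (-0.10), CadN with quantile normalisation (-0.22), p120ctn without soma replicate 1 (0.39) and without germline replicate 2 (0.15), and alpha-Cat without soma replicate 2 (-0.046). The cause was not tested. With a library left out, log2 fold changes ranged from -0.10 to 0.21 for arm, from -0.05 to 1.20 for alpha-Cat and from -0.47 to 0.39 for p120ctn. With the replicate number as a replicate block, 3 members, 968 genes higher in soma and 581 higher in germline were called. The replicate differences in soma and in germline had a correlation of -0.07 over 8823 genes. That value cannot decide whether same-numbered libraries were prepared together, which the labels do not give. CadN has no value at a minimum of 1 FPKM, nor cno with limma-voom. Soma replicate 2, with 629199 reads other than ribosomal RNA, limits the precision of low genes.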
